A study of Rattus norvegicus with 15 samples.

Results

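Solute carriers are the largest family of membrane transporters in mammals, and 160 entries named as such were expressed in these cultured rat aortic smooth muscle cells (SMC). The members were the rows of the deposited expression table whose name begins with Slc and a digit, with at least 5 TPM in at least 3 of the 15 libraries. TPM, a transcript abundance scaled by gene length and library total, is the unit of the table. The table held 362 such rows among 32623 entries, so 202 rows stayed below this level, 59 of them at 0 in all libraries. Just inside the limit were Slc25a2, Slc25a14 and Slc26a10, whose value in the library ranked 3 was 5.03, 5.11 and 5.61 TPM. Just outside were Slc9a5, Slc29a4 and Slc38a9, with 4.88, 4.81 and 4.75 TPM. In all 15 libraries 133 members reached 5 TPM, and only Slc47a1 reached it in a single group. Of the 160, 4 are named Slc but are no transporters.

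RNA-seq libraries came from 4 groups of rat aortic SMC. Control (wild-type, untreated), the untreated line Myocd-LSD1 and the untreated line Myocd-LSD1NF (the NF line) held 4 libraries each, and wild-type SMC given PDGF-BB held 3. The Myocd-LSD1 protein joins myocardin, the coactivator that drives contractile genes, to LSD1, a histone demethylase, and per the series design it removes H3K4me2 from SMC chromatin. The labels give neither the meaning of NF nor whether the lines were clones. All cells were starved for 72 h without serum or insulin before harvest. PDGF-BB, human recombinant platelet-derived growth factor BB, was present at 30 ng/ml during the last 24 h, once 48 h of starvation had passed. Nothing in the labels says that replicates came from separate cultures, so the p-values rest on a spread between libraries that may be technical. Sequencing depth cannot be read from TPM and is unknown for all values.

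Transporters set what a cell takes up and releases. Glucose enters through GLUT proteins (Slc2) and leaves glycolysis as lactate through MCT proteins (Slc16), some of which need basigin as a chaperone. Large neutral amino acids enter through the LAT1 light chain (Slc7a5) bound to the CD98 heavy chain (Slc3a2), and their genes respond to the transcription factor ATF4. Adenosine, a vasodilator, is cleared from outside the cell by the nucleoside carrier ENT1 (Slc29a1). In smooth muscle, sodium, calcium and chloride exchangers of the Slc8, Slc24 and Slc12 families help to set cell calcium and volume, and Slc25 carriers link cytosol and mitochondria.

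The libraries were checked before the carriers were read. The 8 smooth muscle markers were detected in every group, with a summed level of 23201 to 30037 TPM in Control, 11399.8 to 24806 in Myocd-LSD1NF, 7721 to 9985 in PDGF-BB and 4240.4 to 7038 in Myocd-LSD1. Of 6 endothelial markers, Cdh5, Kdr, Vwf and Tie1 stayed below 0.1 TPM in every library, and Tek reached 2.13 TPM at most. Erg read 2.56 to 6.29 TPM in Control, 0.48 to 4.97 in Myocd-LSD1NF, 0.15 to 0.57 in PDGF-BB and 0.39 to 1.39 in Myocd-LSD1. Of 6 leukocyte markers, Ptprc, Laptm5 and Tyrobp stayed below 0.1 TPM in every library. Among the others Cd14 stood at 38.7 to 49.4 TPM in Control, 55.3 to 137 in Myocd-LSD1NF, 73.7 to 132 in PDGF-BB and 106 to 226 in Myocd-LSD1. Cd68 and Csf1r reached 1.62 TPM at most. The summed level of 6 epithelial and mesothelial markers was 33.5 to 55.98 TPM in Control, 32.05 to 40.05 in Myocd-LSD1NF, 43.06 to 57.05 in PDGF-BB and 57.7 to 249 in Myocd-LSD1. In Control and Myocd-LSD1, Msln read 0.880 to 4.49 and 7.88 to 189 TPM and Krt8 13.99 to 22.01 and 26.0 to 57.4. But Upk3b read 14.9 to 32.1 and 2.94 to 23.6 there, and Epcam, Cdh1 and Krt18 stayed at or below 0.31 TPM. With PDGF-BB Msln read 2.28 to 3.1, Krt8 33.9 to 50.96, Upk3b 2.6 to 5.84 and Epcam 0.76 to 1.51 TPM. The summed level of 5 fibroblast markers was 15.4 to 35.7 TPM in Control, 5.23 to 8.99 in Myocd-LSD1NF, 25.9 to 56.7 in PDGF-BB and 6.61 to 15.1 in Myocd-LSD1. The part of these levels in the results below was not tested, and in bulk RNA fewer cells of a type and less RNA per cell cannot be told apart. Within groups, the correlation of log values over all tested genes was 0.961 to 0.988 between libraries. Myocd-LSD1 libraries 2 and 4 lay nearer to each other (0.987) than to 1 and 3 (0.961 to 0.978), and Myocd-LSD1NF 4 correlated with its own group at 0.963 to 0.967.

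Start regions of 5 carriers are shown here because their genes are the leading lactate, glucose, amino acid and nucleoside carriers. They are RefSeq windows of 300 bases on the rat GRCr8 assembly, from 250 bases before to 50 after the start of the gene, read 5′ to 3′ along the gene's strand. Of 160 members 158 matched a RefSeq symbol and 120 had such a window. The search covered ACGTG, the core of the hypoxia response element, TGATGNAA, the amino acid response element, TGACNNNGC, the core of the antioxidant response element, and the CArG box of serum response factor, on both strands. Capitals mark every match, and ACGTG also lies inside CACGTG, which counts on both strands. Slc29a1, at chr9:22896849-22897148 on the plus strand, Slc16a3, at chr10:106712078-106712377 on the plus strand, Slc16a1, at chr2:194812410-194812709 on the plus strand, Slc2a1, at chr5:138002272-138002571 on the plus strand, and Slc7a5, at chr19:66872363-66872662 on the minus strand, had these windows.
Slc29a1: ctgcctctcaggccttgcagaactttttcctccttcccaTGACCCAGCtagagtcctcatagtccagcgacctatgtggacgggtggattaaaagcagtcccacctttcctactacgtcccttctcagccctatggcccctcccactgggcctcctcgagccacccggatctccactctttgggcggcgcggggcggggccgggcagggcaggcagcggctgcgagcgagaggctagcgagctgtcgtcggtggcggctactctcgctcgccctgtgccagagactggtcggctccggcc
Slc16a3: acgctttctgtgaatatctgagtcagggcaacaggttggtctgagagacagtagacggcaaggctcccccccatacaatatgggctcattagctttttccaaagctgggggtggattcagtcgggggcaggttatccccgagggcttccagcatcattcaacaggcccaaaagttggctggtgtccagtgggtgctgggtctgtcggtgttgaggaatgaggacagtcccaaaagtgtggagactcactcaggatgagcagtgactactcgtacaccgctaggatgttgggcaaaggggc
Slc16a1: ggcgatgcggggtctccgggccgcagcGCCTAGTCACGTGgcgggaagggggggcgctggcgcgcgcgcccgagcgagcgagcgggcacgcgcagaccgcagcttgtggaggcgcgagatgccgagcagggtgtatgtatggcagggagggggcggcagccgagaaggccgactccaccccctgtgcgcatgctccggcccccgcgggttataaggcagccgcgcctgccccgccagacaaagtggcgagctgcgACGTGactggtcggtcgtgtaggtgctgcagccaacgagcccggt
Slc2a1: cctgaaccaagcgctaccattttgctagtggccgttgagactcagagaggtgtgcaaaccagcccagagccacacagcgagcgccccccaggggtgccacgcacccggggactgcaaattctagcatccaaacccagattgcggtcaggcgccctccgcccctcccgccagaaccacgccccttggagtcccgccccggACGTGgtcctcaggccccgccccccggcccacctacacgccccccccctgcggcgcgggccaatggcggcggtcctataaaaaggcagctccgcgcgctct
Slc7a5: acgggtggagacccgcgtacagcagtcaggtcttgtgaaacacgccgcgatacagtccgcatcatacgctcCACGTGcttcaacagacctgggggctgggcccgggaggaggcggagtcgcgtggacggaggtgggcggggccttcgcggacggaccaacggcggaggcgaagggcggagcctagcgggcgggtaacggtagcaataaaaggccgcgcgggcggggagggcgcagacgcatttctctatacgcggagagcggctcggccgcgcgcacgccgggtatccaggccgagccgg
The ACGTG core was matched in the windows of Slc16a1, Slc2a1 and Slc7a5, an antioxidant element in those of Slc29a1 and Slc16a1, and nothing in that of Slc16a3. Slc3a2 had 2 windows in the table and is not shown, and Slc16a14 is named only. ACGTG was present in 40 of 120 member windows (33.3%), in 19.3% of all 33469 windows, and in 26.6% of the 7792 windows of genes that met the same TPM rule as the members. The antioxidant core was in 19.2% of member windows, 12.1% of all and 15% of those of genes at the same level. For the amino acid response element the shares were 2.5%, 3.98% and 1.73%, and for the CArG box 0, 1.64% and 1.32%. These matches describe letters and are not evidence of binding.

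Counted over all classes, 72 of 160 members passed in the Myocd-LSD1 line against Control (limma adjusted p under 0.05), 40 higher and 32 lower. The 40 include Slc47a1, a member through this line alone. This is 45% of the members, beside a background of 32.2% of all 12207 tested genes and 31.9% of the 10471 genes that met the same TPM rule as the members. The higher share was 25% (background 16.9%) and the lower share 20% (background 15.4%), and the median log2 fold change was 0.09 beside 0.03 over all tested genes. After median-of-ratios scaling, and also after quantile normalization, the split in this line was 39 higher and 37 lower. The ± beside a log2 fold change is its SE, and adding 1 to each TPM before taking logs understates the change of low carriers. With PDGF-BB 44 members passed, 26 higher and 18 lower, or 27.5% beside a background of 27.7% (28.9% under the TPM rule), so the members' share was near that of all genes. The lower share was 11.2% (background 8.5%) and the higher share 16.2% (background 19.2%), and without PDGF-BB 3 the count was 27, 12 higher and 15 lower. After median-of-ratios scaling, which shifts the PDGF-BB median over all genes from 0.12 to -0.01, the split was 22 higher and 29 lower.

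In Myocd-LSD1NF against Control 1 member passed, lower, or 0.625% beside a background of 2.21% (1.78% under the TPM rule). For lower calls alone the background was 1.74% and for higher calls 0.475%, and 19 members had an unadjusted p under 0.05. The share of all tested genes at that unadjusted level is not given here, so the 19 cannot be read as a trait of the members. The lines compared directly gave 58 members, 37 higher and 21 lower in Myocd-LSD1, or 36.2% beside a background of 31.8% (31.7% under the TPM rule). The higher share was 23.1% (background 19.1%) and the lower share 13.1% (background 12.7%). After median-of-ratios scaling the split was 34 and 35, and without Myocd-LSD1 2 and 4 the count was 38. Myocd-LSD1 against PDGF-BB gave 54 members, 24 higher and 30 lower, or 33.8% beside a background of 31.1% (31.2% under the TPM rule). The higher share was 15% (background 10.6%) and the lower share 18.8% (background 20.5%). The split was 38 and 26 after that scaling, which shifts the median over all genes from -0.10 to 0.00. Without Myocd-LSD1 2 and 4 this count was 34. Of the 65 partner genes listed 56 could be tested. In the Myocd-LSD1 line 21 of them rose and 6 fell, with PDGF-BB 16 rose and 9 fell, and in Myocd-LSD1NF 3 fell and none rose. Over all tested genes the shares called in either direction were the 32.2%, 27.7% and 2.21% given above, and the partners were listed with earlier results known. Both limits also hold for the partner counts by class below. Beside those counts, 16.9% of all tested genes were higher and 15.4% lower in the Myocd-LSD1 line, and 19.2% and 8.5% with PDGF-BB. The 3 comparisons with Control share its 4 libraries, so their counts are not independent of each other. What the fusion does and what else differs between a line and wild-type SMC cannot be told apart.

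**Figure D1:**
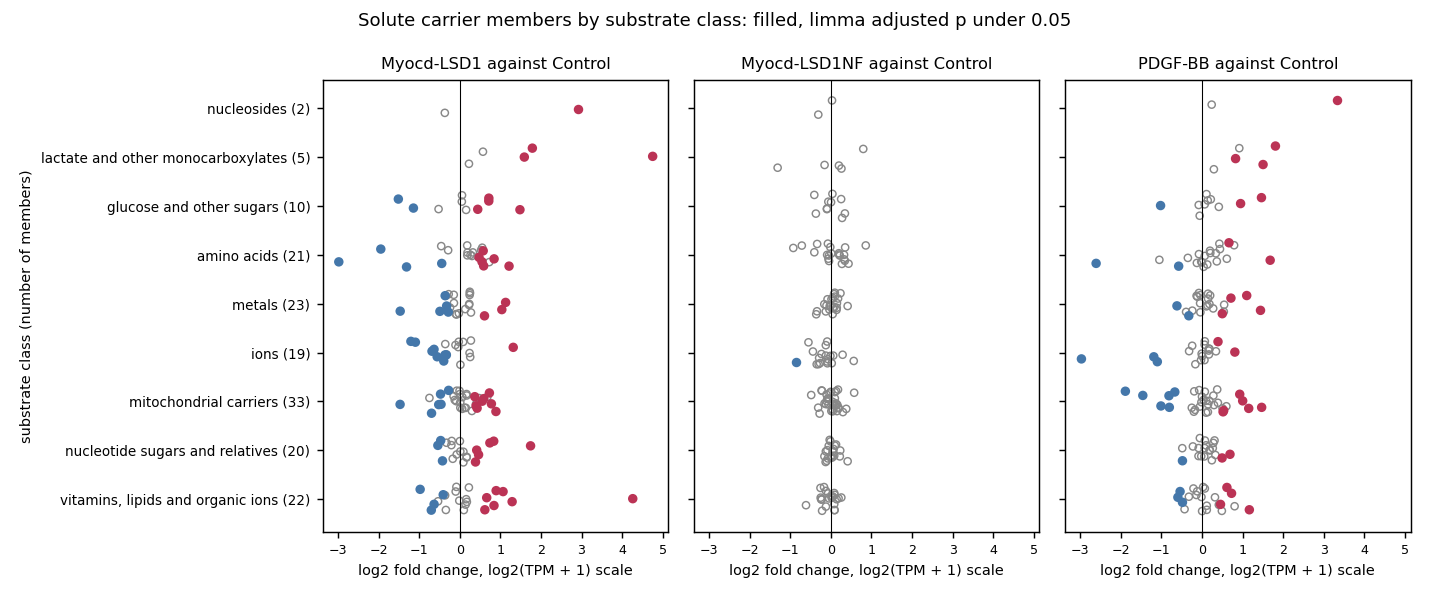
Log2 fold change on the log2(TPM + 1) scale of solute carrier members, 1 point each, by substrate class, against Control. Filled points passed limma (adjusted p under 0.05, red higher and blue lower) and open points did not, with 72, 1 and 44 of 160 members passing in Myocd-LSD1, Myocd-LSD1NF and PDGF-BB (5 members outside the substrate classes are not drawn).

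Slc29a1, the ENT1 nucleoside carrier, was high in 2 of the 4 groups. Slc29a1 read 12.6, 10.2, 10.9 and 13.2 TPM in Control 1 to 4, 9.62, 14.6, 7.12 and 20.01 in Myocd-LSD1NF 1 to 4, 99.9, 122 and 165 in PDGF-BB 1 to 3, and 124, 85.6, 144 and 52.3 in Myocd-LSD1 1 to 4. All libraries of PDGF-BB and Myocd-LSD1 stood above all libraries of Control and Myocd-LSD1NF, with no overlap. Slc29a1 rose from 11.8 ± 1.39 TPM (SD, n = 4) in Control to 129 ± 33.4 TPM (n = 3) with PDGF-BB (log2 fold change 3.32 ± 0.33, limma adjusted p = 1.52e-05). In the Myocd-LSD1 line it averaged 102 ± 40.8 TPM (log2 fold change 2.91 ± 0.31, limma adjusted p = 5.35e-06). Myocd-LSD1NF, at 12.8 ± 5.701 TPM, did not pass against Control (limma adjusted p = 0.981), and the Myocd-LSD1 line stood above it (log2 fold change 2.88 ± 0.31, limma adjusted p = 7.18e-06). The direct difference between the Myocd-LSD1 line and PDGF-BB was -0.41 ± 0.33 on the log2 scale and did not pass (limma adjusted p = 0.379), which does not show that their levels were alike. Slc29a3, the ENT3 carrier of lysosomes and the only other nucleoside carrier among the members, averaged 12.96 ± 1.25 TPM in the Myocd-LSD1 line, 20.3 ± 1.81 with PDGF-BB, 13.7 ± 2.72 in the NF line and 17.2 ± 2.96 in Control, and was lower in Myocd-LSD1 than in PDGF-BB (log2 fold change -0.61 ± 0.16, limma adjusted p = 0.00832), a call lost without Myocd-LSD1 2 and 4 (limma adjusted p = 0.0730).

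Of 5 tested partner genes of nucleoside handling, 2 rose in the Myocd-LSD1 line and 2 with PDGF-BB, and none fell in either. The shares called higher over all tested genes were 16.9% and 19.2%, and these partners were listed with earlier results known. Ada, adenosine deaminase, rose by 0.97 ± 0.17 on the log2 scale with PDGF-BB and by 0.62 ± 0.16 in the Myocd-LSD1 line (limma adjusted p = 0.00101 and 0.00741). Tk1, thymidine kinase of dividing cells, rose with PDGF-BB from 23.3 ± 3.99 to 81.3 ± 8.43 TPM (log2 fold change 1.77 ± 0.35, limma adjusted p = 0.00204). Nt5e, the CD73 enzyme that makes adenosine outside the cell, was lower in Myocd-LSD1NF (2.09, 0.79, 1.44 and 0.87 TPM in libraries 1 to 4) than in the Myocd-LSD1 line (12.3, 26.2, 5.2 and 20.3 TPM), with no overlap (log2 fold change 2.72 ± 0.43, limma adjusted p = 0.000235). Control 1 to 4 read 7.18, 15.8, 3.96 and 3.91 TPM. Against Control, Nt5e passed as lower in Myocd-LSD1NF (log2 fold change -1.76 ± 0.43, limma adjusted p = 0.0461). In the Myocd-LSD1 line it did not pass (limma adjusted p = 0.106).

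**Figure D2:**
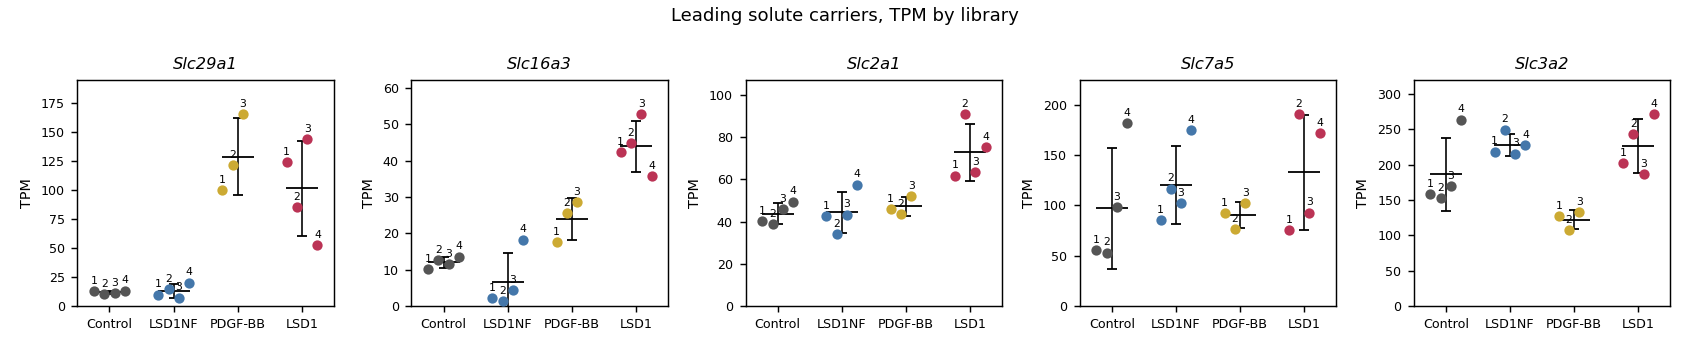
TPM of 5 leading solute carriers in each library (points, numbered by replicate) of Control, Myocd-LSD1NF (LSD1NF), PDGF-BB and Myocd-LSD1 (LSD1), with the mean and SD as bars. Slc29a1 is high in the 3 PDGF-BB and 4 Myocd-LSD1 libraries, Slc16a3 is low in Myocd-LSD1NF 1 to 3, and Slc7a5 is high in replicate 4 of Control and Myocd-LSD1NF and in replicates 2 and 4 of Myocd-LSD1.

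Of 5 carriers of lactate and other monocarboxylates, 3 rose and none fell in the Myocd-LSD1 line against Control (Slc16a14, Slc16a3 and Slc16a1). With PDGF-BB 3 also rose and none fell, but these were Slc16a14, Slc16a7 and Slc16a13, so only Slc16a14 was called in both. The share of all tested genes called higher was 16.9% in the line and 19.2% with PDGF-BB. The median log2 fold change was 1.59 in the line and 0.92 with PDGF-BB, beside 0.03 and 0.12 over all 12207 tested genes. Between the Myocd-LSD1 line and PDGF-BB, 2 were higher and 2 lower in the line. Slc16a3 read 10.2, 12.6, 11.5 and 13.6 TPM in Control 1 to 4, 2.24, 1.21, 4.31 and 18.3 in Myocd-LSD1NF 1 to 4, 17.5, 25.5 and 28.7 in PDGF-BB 1 to 3, and 42.4, 44.9, 52.8 and 35.8 in Myocd-LSD1 1 to 4. Slc16a3, the MCT4 lactate exporter of glycolytic cells, was higher in every Myocd-LSD1 library than in any other, and lowest in Myocd-LSD1NF 1 to 3, while Myocd-LSD1NF 4 stood above all 4 Control libraries. It rose in the Myocd-LSD1 line against Control (log2 fold change 1.79 ± 0.46, limma adjusted p = 0.00758) and was above Myocd-LSD1NF (log2 fold change 3.10 ± 0.46, limma adjusted p = 0.000138). Against Control, Myocd-LSD1NF had a log2 difference of -1.31 ± 0.46 that did not pass (limma adjusted p = 0.172). Without Myocd-LSD1NF 4 it was -1.94 and passed (limma adjusted p = 0.000528). With PDGF-BB the 3 libraries, at 17.5, 25.5 and 28.7 TPM, stood above the 4 Control libraries, yet the difference of 0.92 ± 0.50 did not pass (limma adjusted p = 0.181). All groups share 1 estimate of the spread in this fit, and without Myocd-LSD1NF 4 the same difference passed (limma adjusted p = 0.0128), as it did in a fit of PDGF-BB and Control alone (limma adjusted p = 0.00517).

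Slc16a1 read 35.5, 31, 28.9 and 38.7 TPM in Control 1 to 4, 39.6, 46.3, 28.9 and 40.9 in Myocd-LSD1NF 1 to 4, 36.4, 39.9 and 47.7 in PDGF-BB 1 to 3, and 120.3, 99.3, 73.8 and 124 in Myocd-LSD1 1 to 4. The lowest Myocd-LSD1 value of Slc16a1, the MCT1 carrier of lactate and pyruvate, was above the highest of the other 11 libraries. It rose against Control (log2 fold change 1.59 ± 0.17, limma adjusted p = 6.74e-06), against Myocd-LSD1NF (log2 fold change 1.39 ± 0.17, limma adjusted p = 2.99e-05) and against PDGF-BB (log2 fold change 1.30 ± 0.19, limma adjusted p = 0.000137). With PDGF-BB it had a log2 difference of 0.29 ± 0.19 from Control that did not pass (limma adjusted p = 0.254).

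Slc16a14, an orphan member of the monocarboxylate carrier family, was highest in the Myocd-LSD1 line. Slc16a14 read 1.23, 0.97, 0.67 and 3.19 TPM in Control 1 to 4, 2.27, 3.92, 1.42 and 6.22 in Myocd-LSD1NF 1 to 4, 6.85, 5.73 and 9.67 in PDGF-BB 1 to 3, and 69.8, 64, 36.1 and 93.5 in Myocd-LSD1 1 to 4. Myocd-LSD1 and PDGF-BB did not overlap with Control, nor with each other. The rise over Control was 4.75 ± 0.36 on the log2 scale in the Myocd-LSD1 line and 1.81 ± 0.39 with PDGF-BB (limma adjusted p = 2.08e-07 and 0.00377), and the Myocd-LSD1 line was above PDGF-BB by 2.94 ± 0.39 (limma adjusted p = 7.20e-05). No Control library of Slc16a14 reached the 5 TPM of the member rule. It is a member through the other groups alone, so the rule favours a rise over Control. Slc16a7, the MCT2 carrier, was instead highest with PDGF-BB. Slc16a7 read 6.68, 4.91, 4.13 and 7.6 TPM in Control 1 to 4, 4.45, 5.67, 3.89 and 6.34 in Myocd-LSD1NF 1 to 4, 14.7, 17.3 and 22.96 in PDGF-BB 1 to 3, and 8.64, 13.3, 5.44 and 10.0 in Myocd-LSD1 1 to 4. It rose over Control with PDGF-BB (log2 fold change 1.51 ± 0.26, limma adjusted p = 0.000774), and the Myocd-LSD1 line was lower than PDGF-BB (log2 fold change -0.94 ± 0.26, limma adjusted p = 0.0121), a call lost without PDGF-BB 3 (limma adjusted p = 0.0683).

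The partners of lactate transport moved in both directions. Of 7 tested, 3 rose and 2 fell in the Myocd-LSD1 line, and 1 rose and 2 fell with PDGF-BB. Emb, embigin, the chaperone of MCT2, rose from 45.9 ± 12.7 to 116 ± 29.7 TPM in the Myocd-LSD1 line (log2 fold change 1.32 ± 0.23, limma adjusted p = 0.0004). Bsg, basigin, stood at 1181 ± 63.4 TPM in Control and 1168 ± 31.96 in the Myocd-LSD1 line (limma adjusted p = 0.919), and fell with PDGF-BB to 739 ± 51.2 TPM (log2 fold change -0.68 ± 0.10, limma adjusted p = 0.00022). Ldha, which makes lactate, rose by 0.71 ± 0.14 in the Myocd-LSD1 line and by 1.12 ± 0.15 with PDGF-BB on the log2 scale (limma adjusted p = 0.00136 and 0.000146). Mpc1, a subunit of the mitochondrial pyruvate carrier, fell in the Myocd-LSD1 line (log2 fold change -0.56 ± 0.14, limma adjusted p = 0.00534).

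Sugar carriers moved in both directions. Among 10 members, 4 rose and 2 fell in the Myocd-LSD1 line, beside 16.9% higher and 15.4% lower over all tested genes. With PDGF-BB 2 rose and 1 fell (19.2% and 8.5% over all tested genes). Slc2a1 read 40.3, 38.8, 45.98 and 49.5 TPM in Control 1 to 4, 42.6, 33.98, 43.4 and 57.5 in Myocd-LSD1NF 1 to 4, 45.9, 43.6 and 52.05 in PDGF-BB 1 to 3, and 61.8, 90.9, 63.3 and 75.2 in Myocd-LSD1 1 to 4. Slc2a1, the basal glucose carrier GLUT1, was higher in each Myocd-LSD1 library than in any library of the other groups. It rose over Control (log2 fold change 0.71 ± 0.15, limma adjusted p = 0.00218) and over Myocd-LSD1NF (log2 fold change 0.71 ± 0.15, limma adjusted p = 0.00263). With PDGF-BB it stood at 47.2 ± 4.38 TPM beside 43.7 ± 4.98 in Control and did not pass (limma adjusted p = 0.649). The Myocd-LSD1 line was above PDGF-BB (log2 fold change 0.60 ± 0.17, limma adjusted p = 0.0121), a call lost without PDGF-BB 2 (limma adjusted p = 0.0541) and without Myocd-LSD1 2 and 4 (limma adjusted p = 0.146).

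Slc2a12 read 6.53, 9.29, 5.35 and 6.29 TPM in Control 1 to 4, 7.59, 7.28, 4.25 and 6.39 in Myocd-LSD1NF 1 to 4, 25.6, 20.8 and 15.9 in PDGF-BB 1 to 3, and 32.6, 20.4, 18.4 and 14.7 in Myocd-LSD1 1 to 4. Slc2a12, the GLUT12 carrier, was higher in all PDGF-BB and Myocd-LSD1 libraries than in all others. The rise was 1.48 ± 0.23 in the Myocd-LSD1 line and 1.47 ± 0.25 with PDGF-BB on the log2 scale (limma adjusted p = 0.000197 and 0.000867). Slc2a10, the GLUT10 carrier, whose loss in humans causes arterial tortuosity syndrome, went the other way. Slc2a10 read 18.2, 19.04, 17.3 and 16.1 TPM in Control 1 to 4, 13.3, 11.1, 11.8 and 16.4 in Myocd-LSD1NF 1 to 4, 8.26, 8.43 and 7.92 in PDGF-BB 1 to 3, and 5.32, 6.43, 4.92 and 5.54 in Myocd-LSD1 1 to 4. It fell in the Myocd-LSD1 line (log2 fold change -1.51 ± 0.12, limma adjusted p = 4.21e-07) and with PDGF-BB (log2 fold change -1.02 ± 0.13, limma adjusted p = 0.000104), and neither of these groups overlapped with Control. Slc37a4, which carries glucose 6-phosphate into the endoplasmic reticulum, rose in the Myocd-LSD1 line from 25.3 ± 3.31 to 42.6 ± 9.42 TPM (log2 fold change 0.72 ± 0.14, limma adjusted p = 0.00133).

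Slc2a3, the GLUT3 carrier and the most abundant sugar carrier over all libraries, was unequal among the Myocd-LSD1 libraries. Slc2a3 read 105, 90.5, 67.8 and 72.7 TPM in Control 1 to 4, 89.9, 123, 80.8 and 139 in Myocd-LSD1NF 1 to 4, 73.3, 78.6 and 114 in PDGF-BB 1 to 3, and 78.01, 33.8, 109 and 37.3 in Myocd-LSD1 1 to 4. Libraries 2 and 4 of the Myocd-LSD1 line were the lowest of all 15 and libraries 1 and 3 lay within the range of the other groups. It did not pass against Control (limma adjusted p = 0.233), and it passed as lower without Myocd-LSD1 3 (limma adjusted p = 0.0342). Slc2a6, the GLUT6 carrier of lysosomes, split in the same way, with 2.63, 1.28, 2.56 and 0.86 TPM in Myocd-LSD1 1 to 4 beside 5.202 ± 1.84 TPM in Control, and its fall (log2 fold change -1.14 ± 0.29, limma adjusted p = 0.00633) was lost without libraries 2 and 4 (limma adjusted p = 0.108). With PDGF-BB Slc2a6 was called higher than in Control. Of 7 tested partners of glucose uptake, 2 rose and 2 fell in the Myocd-LSD1 line. Pfkfb3, which makes an activator of glycolysis, fell there from 33.7 ± 2.996 to 14.7 ± 1.98 TPM (log2 fold change -1.15 ± 0.14, limma adjusted p = 2.32e-05), and Pfkp, a phosphofructokinase, rose with PDGF-BB from 27.9 ± 2.34 to 64.2 ± 13.4 TPM (log2 fold change 1.15 ± 0.16, limma adjusted p = 0.000164). Pfkfb3 also fell with PDGF-BB (log2 fold change -0.46 ± 0.15, limma adjusted p = 0.0388). Pfkp also rose in the Myocd-LSD1 line (log2 fold change 0.43 ± 0.15, limma adjusted p = 0.0381).

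**Figure D3:**
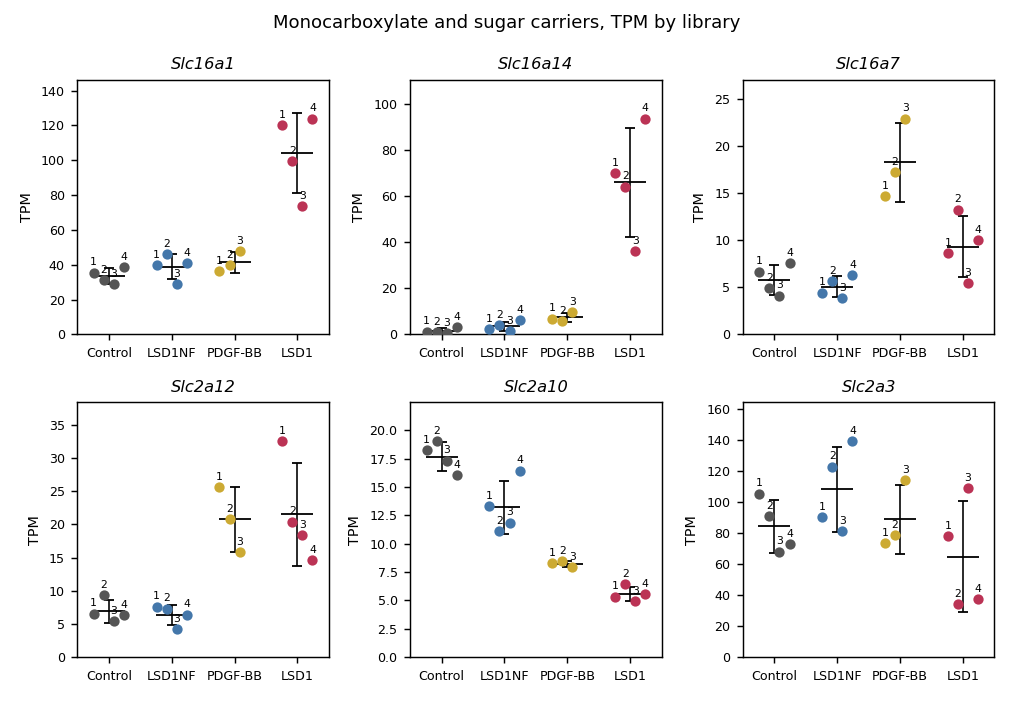
TPM of 3 monocarboxylate carriers and 3 sugar carriers in each library (points, numbered by replicate) of Control, Myocd-LSD1NF (LSD1NF), PDGF-BB and Myocd-LSD1 (LSD1), with the mean and SD as bars. Slc16a1 and Slc16a14 are highest in the 4 Myocd-LSD1 libraries, Slc16a7 in the 3 PDGF-BB libraries, Slc2a12 is high and Slc2a10 low in both groups, and Slc2a3 is low in Myocd-LSD1 2 and 4.

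Amino acid carriers moved in both directions. Of 21 members 6 rose and 4 fell in the Myocd-LSD1 line, beside 16.9% higher and 15.4% lower over all tested genes. With PDGF-BB 2 rose and 2 fell (19.2% and 8.5% over all tested genes), and none passed in Myocd-LSD1NF. Slc7a5 read 55.6, 52.9, 98.3 and 182 TPM in Control 1 to 4, 85.6, 117, 102 and 175 in Myocd-LSD1NF 1 to 4, 92.4, 76 and 102 in PDGF-BB 1 to 3, and 75.6, 190.4, 92.7 and 172 in Myocd-LSD1 1 to 4. Slc3a2 read 158, 153, 169.6 and 264 TPM in Control 1 to 4, 219, 249.7, 216 and 228 in Myocd-LSD1NF 1 to 4, 127, 107 and 132 in PDGF-BB 1 to 3, and 202, 244, 187 and 271 in Myocd-LSD1 1 to 4. The light chain Slc7a5, LAT1, overlapped between all groups, with replicate 4 of Control and of Myocd-LSD1NF and replicates 2 and 4 of Myocd-LSD1 at 172 TPM or more and all other libraries at 117 TPM or less. It passed in no comparison (limma adjusted p = 0.312 for the Myocd-LSD1 line and 0.918 for PDGF-BB against Control), but with libraries weighted by their spread it passed as higher than Control in the Myocd-LSD1 line (limma adjusted p = 0.00752). The heavy chain Slc3a2, CD98, was lower with PDGF-BB, whose 3 libraries lay below all 12 others. It fell against Control (log2 fold change -0.57 ± 0.17, limma adjusted p = 0.0236), a call lost without PDGF-BB 2 (limma adjusted p = 0.105), and was lower than in the Myocd-LSD1 line (log2 fold change 0.87 ± 0.17, limma adjusted p = 0.00153 for Myocd-LSD1 against PDGF-BB).

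Genes of the amino acid response followed a similar order of libraries. Asns, asparagine synthetase, read 52.9, 42.4, 33.6 and 117 TPM in Control 1 to 4, 58.3, 47.4, 42.05 and 102 in Myocd-LSD1NF 1 to 4, 41.4, 52.95 and 76.2 in PDGF-BB 1 to 3 and 109, 167, 85.01 and 145 in Myocd-LSD1 1 to 4. Trib3, a pseudokinase of this response, read 16, 9.05, 18.9 and 97.01 TPM, 16.7, 14.96, 21.2 and 83.2 TPM, 4.09, 5.56 and 11.7 TPM and 67.5, 205, 65.4 and 211 TPM in the same order. Control 4 and Myocd-LSD1NF 4 were the highest of their groups in both genes, and Myocd-LSD1 2 and 4 the highest of theirs. The part of this pattern in the levels of the carriers was not tested. Of 10 tested partners of amino acid uptake 4 rose in the Myocd-LSD1 line and none fell, while 1 rose and 3 fell with PDGF-BB. Psat1, a serine synthesis enzyme, rose in the Myocd-LSD1 line (log2 fold change 2.17 ± 0.44, limma adjusted p = 0.00142), and Chac1, which breaks down glutathione, fell with PDGF-BB from 71.4 ± 59.6 to 12.8 ± 7.43 TPM (log2 fold change -2.18 ± 0.53, limma adjusted p = 0.00741). Atf4 itself fell with PDGF-BB (log2 fold change -0.90 ± 0.23, limma adjusted p = 0.0111), a call lost without PDGF-BB 2 (limma adjusted p = 0.0696).

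Slc7a11 read 1.11, 0.65, 0.49 and 5.55 TPM in Control 1 to 4, 1.52, 1.71, 0.7 and 4.36 in Myocd-LSD1NF 1 to 4, 4.85, 5.99 and 10.3 in PDGF-BB 1 to 3, and 5.07, 5.94, 3.32 and 4.4 in Myocd-LSD1 1 to 4. Slc7a11, the xCT light chain that exchanges cystine for glutamate, was above 3 of 4 Control libraries in each PDGF-BB and Myocd-LSD1 library, and Control 4 lay among them. It rose with PDGF-BB (log2 fold change 1.68 ± 0.46, limma adjusted p = 0.0143), a call lost without PDGF-BB 3 (limma adjusted p = 0.0775). In the Myocd-LSD1 line the difference (log2 fold change 1.21 ± 0.43, limma adjusted p = 0.0406) was lost when Control 1, 2 or 3, PDGF-BB 2, or Myocd-LSD1 1, 2 or 4 was left out, with limma adjusted p from 0.0510 to 0.126.

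Slc6a6, Slc1a3 and Slc7a2 were among the 4 members of this class that fell in the Myocd-LSD1 line. Slc6a6 read 92.4, 59.7, 73.4 and 80.98 TPM in Control 1 to 4, 57.2, 77.4, 50.4 and 19.3 in Myocd-LSD1NF 1 to 4, 66.5, 69.5 and 45.2 in PDGF-BB 1 to 3, and 21.96, 2.7, 27.2 and 2.73 in Myocd-LSD1 1 to 4. Slc6a6, the taurine carrier, had its lowest values in Myocd-LSD1 2 and 4, and it fell against Control (log2 fold change -2.98 ± 0.60, limma adjusted p = 0.00131), while Myocd-LSD1NF 4 lay within the Myocd-LSD1 range. Slc1a3 read 59.2, 123, 53.02 and 63.9 TPM in Control 1 to 4, 55.8, 28, 43.1 and 26.8 in Myocd-LSD1NF 1 to 4, 11.8, 10.6 and 9.98 in PDGF-BB 1 to 3, and 28.6, 19.2, 47.2 and 23.04 in Myocd-LSD1 1 to 4. Slc1a3, the EAAT1 glutamate carrier, was lowest with PDGF-BB, whose 3 libraries lay below all others. It fell with PDGF-BB (log2 fold change -2.61 ± 0.32, limma adjusted p = 7.59e-05) and in the Myocd-LSD1 line (log2 fold change -1.31 ± 0.30, limma adjusted p = 0.00347), where the call was lost without libraries 2 and 4 (limma adjusted p = 0.0677). Slc7a2 read 14.6, 12.97, 23.3 and 17.02 TPM in Control 1 to 4, 64.4, 26.5, 33.6 and 15.6 in Myocd-LSD1NF 1 to 4, 13.5, 7.21 and 4.16 in PDGF-BB 1 to 3, and 2.42, 4.25, 0.88 and 11.8 in Myocd-LSD1 1 to 4. Slc7a2, the CAT2 carrier of arginine, the substrate of nitric oxide synthases, fell in the Myocd-LSD1 line (log2 fold change -1.95 ± 0.51, limma adjusted p = 0.00894) with no overlap with Control.

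Other amino acid carriers rose in the Myocd-LSD1 line by less. Slc38a10 went from 63.8 ± 7.85 to 117 ± 23.04 TPM (log2 fold change 0.85 ± 0.14, limma adjusted p = 0.000377). Slc38a2, the SNAT2 carrier and the most abundant of the class, stood at 419.9 ± 109 TPM in the Myocd-LSD1 line, 266 ± 23.98 with PDGF-BB, 273 ± 36.2 in the NF line and 282 ± 42 in Control. In the Myocd-LSD1 line Slc38a2 passed against Control (log2 fold change 0.55 ± 0.16, limma adjusted p = 0.0186), but not without Control 1 or 3 or without Myocd-LSD1 2 or 4, where the limma adjusted p was 0.0529 to 0.0616. Without Myocd-LSD1 2 and 4 together the difference was 0.23 (limma adjusted p = 0.275).

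**Figure D4:**
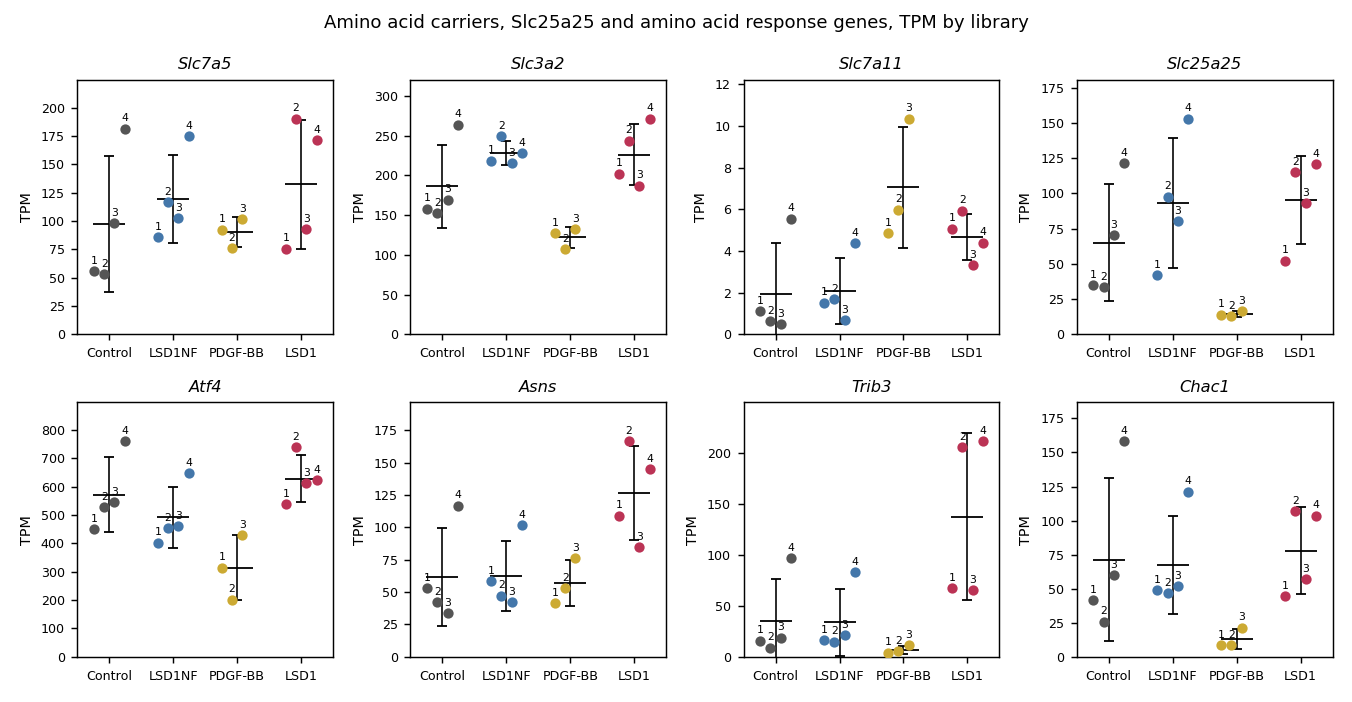
TPM of 3 amino acid carriers, the mitochondrial carrier Slc25a25 and 4 genes of the amino acid response in each library (points, numbered by replicate) of Control, Myocd-LSD1NF (LSD1NF), PDGF-BB and Myocd-LSD1 (LSD1), with the mean and SD as bars. Replicate 4 of Control and of Myocd-LSD1NF is the highest of its group in Slc7a5, Asns, Trib3 and Chac1, and the 3 PDGF-BB libraries are the lowest in Slc3a2 and Slc25a25.

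Metal carriers moved in both directions. Of 23 members 3 rose and 5 fell in the Myocd-LSD1 line, beside 16.9% higher and 15.4% lower over all tested genes. With PDGF-BB 4 rose and 2 fell (19.2% and 8.5% over all tested genes), or 4 and 5 after median-of-ratios scaling. Slc48a1 read 233, 198, 223 and 209.7 TPM in Control 1 to 4, 230.4, 265, 216 and 245 in Myocd-LSD1NF 1 to 4, 164, 146 and 116 in PDGF-BB 1 to 3, and 87.04, 67.6, 78.2 and 77.6 in Myocd-LSD1 1 to 4. Slc48a1, the HRG1 heme carrier of endosomes and lysosomes, was lower in every Myocd-LSD1 library than in any other, and PDGF-BB lay between. It fell in the Myocd-LSD1 line (log2 fold change -1.47 ± 0.11, limma adjusted p = 2.08e-07) and with PDGF-BB (log2 fold change -0.61 ± 0.12, limma adjusted p = 0.00201), and the Myocd-LSD1 line was below PDGF-BB (log2 fold change -0.85 ± 0.12, limma adjusted p = 0.000119). Slc41a3 read 7.76, 6.44, 4.57 and 7.14 TPM in Control 1 to 4, 6.66, 7.63, 5.87 and 9.66 in Myocd-LSD1NF 1 to 4, 17.2, 21.02 and 19.1 in PDGF-BB 1 to 3, and 17.4, 16.7, 12.4 and 14.5 in Myocd-LSD1 1 to 4. Slc41a3, of the magnesium carrier family, was higher in all libraries of Myocd-LSD1 and PDGF-BB than in all others, with log2 rises over Control of 1.13 ± 0.17 and 1.44 ± 0.18 (limma adjusted p = 0.000111 and 7.93e-05).

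Slc39a13 read 66.05, 73.98, 62.7 and 66.6 TPM in Control 1 to 4, 76.6, 75.5, 76.8 and 147 in Myocd-LSD1NF 1 to 4, 99.1, 113 and 122 in PDGF-BB 1 to 3, and 140.2, 149.5, 143 and 124 in Myocd-LSD1 1 to 4. Slc39a13, the ZIP13 zinc carrier, whose loss in humans causes a form of Ehlers-Danlos syndrome, was higher in all PDGF-BB and Myocd-LSD1 libraries than in Control, and Myocd-LSD1NF 4 reached their level. It rose in the Myocd-LSD1 line (log2 fold change 1.04 ± 0.17, limma adjusted p = 0.000284) and with PDGF-BB (log2 fold change 0.71 ± 0.19, limma adjusted p = 0.0108), where the call was lost without PDGF-BB 3 (limma adjusted p = 0.0525). Slc39a1, the ZIP1 zinc carrier and the most abundant metal carrier, stood at 222 ± 32.7 TPM in the Myocd-LSD1 line, 322 ± 22.1 with PDGF-BB, 293 ± 21.3 in the NF line and 284 ± 33.3 in Control. Of 10 tested partners of metal handling 4 rose in the Myocd-LSD1 line and 4 with PDGF-BB, and none fell in either. Of all tested genes 16.9% and 19.2% were called higher, and these partners were listed with earlier results known. Mt2A, a zinc-binding metallothionein, rose in the Myocd-LSD1 line from 276 ± 38.2 to 734 ± 86.5 TPM (log2 fold change 1.41 ± 0.18, limma adjusted p = 3.23e-05), and Steap3, an endosomal iron reductase, rose with PDGF-BB (log2 fold change 2.06 ± 0.34, limma adjusted p = 0.000652) and in the Myocd-LSD1 line (log2 fold change 1.21 ± 0.32, limma adjusted p = 0.00851).

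Among 19 ion carriers falls outnumbered rises in the Myocd-LSD1 line, where 8 fell and 1 rose, beside 15.4% lower and 16.9% higher over all tested genes. With PDGF-BB 2 rose and 3 fell (19.2% and 8.5% over all tested genes), and none rose and 5 fell after median-of-ratios scaling. Slc12a2 read 27.1, 38.2, 23.8 and 38.6 TPM in Control 1 to 4, 33.1, 28.4, 23.1 and 46.8 in Myocd-LSD1NF 1 to 4, 25.4, 36.2 and 48 in PDGF-BB 1 to 3, and 81.99, 103, 55.1 and 84.8 in Myocd-LSD1 1 to 4. The exception was Slc12a2, the NKCC1 cotransporter that loads smooth muscle with chloride, which was higher in each Myocd-LSD1 library than in any other library. It rose against Control (log2 fold change 1.32 ± 0.25, limma adjusted p = 0.000825) and against Myocd-LSD1NF (log2 fold change 1.29 ± 0.25, limma adjusted p = 0.00109). Slc24a3 read 27.1, 26.9, 25.9 and 40.7 TPM in Control 1 to 4, 36.02, 20.2, 24.1 and 8.66 in Myocd-LSD1NF 1 to 4, 4.27, 3.34 and 1.62 in PDGF-BB 1 to 3, and 10.4, 12.7, 8.73 and 19.5 in Myocd-LSD1 1 to 4. Slc24a3, a potassium-dependent sodium/calcium exchanger, was lowest with PDGF-BB, and the Myocd-LSD1 range lay below all 4 Control libraries. It fell with PDGF-BB (log2 fold change -2.97 ± 0.38, limma adjusted p = 8.91e-05) and in the Myocd-LSD1 line (log2 fold change -1.20 ± 0.35, limma adjusted p = 0.016), and Myocd-LSD1 stood above PDGF-BB (log2 fold change 1.76 ± 0.38, limma adjusted p = 0.00264).

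Slc8a1, the NCX1 sodium/calcium exchanger, was the only member that passed in Myocd-LSD1NF against Control. Slc8a1 read 10.4, 8.34, 11.5 and 12.9 TPM in Control 1 to 4, 5.18, 6.49, 5.23 and 5.02 in Myocd-LSD1NF 1 to 4, 7.77, 12.2 and 14.7 in PDGF-BB 1 to 3, and 8.5, 7.85, 6.41 and 11.02 in Myocd-LSD1 1 to 4. All 4 Myocd-LSD1NF libraries lay below all other libraries but Myocd-LSD1 3, which read below Myocd-LSD1NF 2. The fall (log2 fold change -0.86 ± 0.19, limma adjusted p = 0.0293) was lost when any library of either group except Control 2 was left out, with limma adjusted p from 0.0519 to 0.0822. Slc4a3, a chloride/bicarbonate exchanger, fell in the Myocd-LSD1 line (log2 fold change -1.09 ± 0.20, limma adjusted p = 0.000684) and with PDGF-BB (log2 fold change -1.18 ± 0.22, limma adjusted p = 0.00125). Slc20a1, the PiT-1 phosphate carrier studied in vascular calcification and the most abundant ion carrier, averaged 88.8 ± 19.2 TPM in the Myocd-LSD1 line, 135 ± 45.6 with PDGF-BB, 114 ± 41.6 in the NF line and 74.5 ± 12.7 in Control, and passed as higher with PDGF-BB than in Control (log2 fold change 0.81 ± 0.27, limma adjusted p = 0.0336). This call was lost after median-of-ratios scaling (limma adjusted p = 0.101) and without Control 1, 2 or 3 or PDGF-BB 2 or 3 (limma adjusted p from 0.0505 to 0.183).

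Partner genes of ion transport changed too. Of 11 tested, 4 rose and 2 fell in the Myocd-LSD1 line, 3 rose and 3 fell with PDGF-BB, and 2 fell in Myocd-LSD1NF. Fxyd5, of the FXYD family of ion transport regulators, rose by 1.44 ± 0.22 in the Myocd-LSD1 line and 1.61 ± 0.24 with PDGF-BB on the log2 scale (limma adjusted p = 0.00017 and 0.000313). Fxyd1, phospholemman, fell in the Myocd-LSD1 line from 10.97 ± 4.25 to 0.502 ± 0.348 TPM (log2 fold change -2.94 ± 0.40, limma adjusted p = 5.28e-05). In Myocd-LSD1NF it also passed as lower (log2 fold change -1.79 ± 0.40, limma adjusted p = 0.0294), with overlap with Control. Atp2b4, a plasma membrane calcium pump, fell in the Myocd-LSD1 line from 55.04 ± 17.5 to 14.8 ± 5.52 TPM (log2 fold change -1.86 ± 0.27, limma adjusted p = 0.000104). It fell with PDGF-BB too (log2 fold change -1.15 ± 0.30, limma adjusted p = 0.0102).

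**Figure D5:**
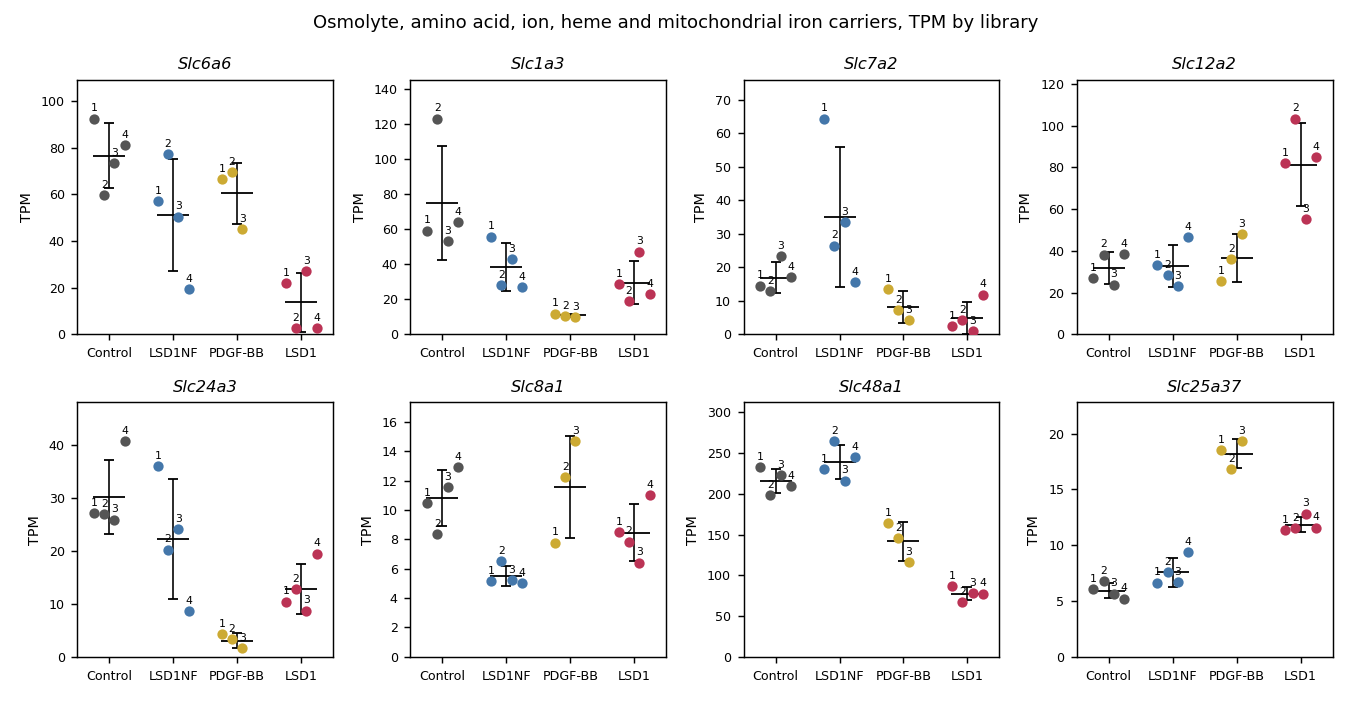
TPM of carriers of taurine (Slc6a6), glutamate (Slc1a3), arginine (Slc7a2), chloride (Slc12a2), calcium (Slc24a3, Slc8a1), heme (Slc48a1) and mitochondrial iron (Slc25a37) in each library (points, numbered by replicate) of Control, Myocd-LSD1NF (LSD1NF), PDGF-BB and Myocd-LSD1 (LSD1), with the mean and SD as bars. Slc12a2 is highest and Slc48a1 lowest in the 4 Myocd-LSD1 libraries, and Slc1a3 and Slc24a3 are lowest in the 3 PDGF-BB libraries.

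Mitochondrial carriers held the most abundant members. Slc25a3, the phosphate carrier, stood at 703 ± 31.9 TPM in the Myocd-LSD1 line, 739 ± 27.8 with PDGF-BB, 687 ± 32.4 in the NF line and 703 ± 20.01 in Control, and passed in no comparison. Of 33 members 8 rose and 6 fell in the Myocd-LSD1 line, beside 16.9% higher and 15.4% lower over all tested genes. With PDGF-BB 6 rose and 6 fell (19.2% and 8.5% over all tested genes), or 5 and 7 after median-of-ratios scaling. Slc25a25 read 34.9, 33.5, 70.2 and 122 TPM in Control 1 to 4, 42.1, 97.8, 80.05 and 153 in Myocd-LSD1NF 1 to 4, 14.1, 12.96 and 16.8 in PDGF-BB 1 to 3, and 52.4, 115, 93.2 and 121 in Myocd-LSD1 1 to 4. Slc25a25, the ATP-magnesium/phosphate carrier, was lower in each PDGF-BB library than in any other, and differed widely among the libraries of Control, Myocd-LSD1NF and Myocd-LSD1. It fell with PDGF-BB (log2 fold change -1.89 ± 0.45, limma adjusted p = 0.00675), and the Myocd-LSD1 line stood above PDGF-BB (log2 fold change 2.56 ± 0.45, limma adjusted p = 0.00064).

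Slc25a37 read 6.07, 6.81, 5.67 and 5.22 TPM in Control 1 to 4, 6.66, 7.57, 6.68 and 9.37 in Myocd-LSD1NF 1 to 4, 18.5, 16.8 and 19.3 in PDGF-BB 1 to 3, and 11.4, 11.6, 12.8 and 11.6 in Myocd-LSD1 1 to 4. Slc25a37, mitoferrin 1, which brings iron into mitochondria, was higher in each PDGF-BB and Myocd-LSD1 library than in any Control or Myocd-LSD1NF library. The rise was 1.47 ± 0.13 with PDGF-BB and 0.89 ± 0.12 in the Myocd-LSD1 line on the log2 scale (limma adjusted p = 5.38e-06 and 4.54e-05), and the Myocd-LSD1 line was below PDGF-BB (log2 fold change -0.58 ± 0.13, limma adjusted p = 0.00329). Slc25a28, mitoferrin 2, rose with PDGF-BB from 16.3 ± 1.25 to 33.8 ± 2.64 TPM (log2 fold change 1.004 ± 0.16, limma adjusted p = 0.000421), and so did Slc25a10, the dicarboxylate carrier, from 12.5 ± 1.17 to 29.1 ± 3.37 TPM (log2 fold change 1.15 ± 0.18, limma adjusted p = 0.000452). In the Myocd-LSD1 line Slc25a28 was called higher than in Control and lower than with PDGF-BB. Slc25a29, a carrier of basic amino acids, fell with PDGF-BB (log2 fold change -1.46 ± 0.18, limma adjusted p = 6.88e-05) and in the Myocd-LSD1 line (log2 fold change -1.47 ± 0.17, limma adjusted p = 9.55e-06). Slc25a1, the citrate carrier that feeds lipid synthesis, fell in the Myocd-LSD1 line from 101 ± 12.7 to 62.5 ± 12.3 TPM (log2 fold change -0.70 ± 0.14, limma adjusted p = 0.00112). Slc25a15, the ornithine carrier, rose there from 8.98 ± 1.01 to 16.2 ± 2.65 TPM (log2 fold change 0.78 ± 0.14, limma adjusted p = 0.000598).

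Of 6 tested mitochondrial partners, 2 rose in the Myocd-LSD1 line and 3 with PDGF-BB. Vdac1, the outer membrane channel, rose with PDGF-BB (log2 fold change 0.56 ± 0.08, limma adjusted p = 0.000318).

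Of 20 carriers of nucleotide sugars and their relatives, most of them in the Golgi and endoplasmic reticulum, 6 rose and 3 fell in the Myocd-LSD1 line. Beside these stand 16.9% higher and 15.4% lower over all tested genes. With PDGF-BB 2 rose and 1 fell (19.2% and 8.5% over all tested genes), or 2 and 3 after median-of-ratios scaling. Slc35f5 read 43.6, 38.5, 42.8 and 50.5 TPM in Control 1 to 4, 48.95, 58.8, 52.5 and 77.3 in Myocd-LSD1NF 1 to 4, 40.8, 42.8 and 39.8 in PDGF-BB 1 to 3, and 112, 164, 115 and 232 in Myocd-LSD1 1 to 4. Slc35f5, an orphan of this family, was higher in each Myocd-LSD1 library than in any other and rose against Control (log2 fold change 1.74 ± 0.20, limma adjusted p = 1.02e-05). Slc35a2, the UDP-galactose carrier, rose in the Myocd-LSD1 line from 27.1 ± 2.999 to 45.9 ± 5.304 TPM (log2 fold change 0.74 ± 0.12, limma adjusted p = 0.000277), as did the orphan Slc35e4 (log2 fold change 0.84 ± 0.12, limma adjusted p = 9.86e-05). Slc35e3, another orphan, rose with PDGF-BB from 47.1 ± 5.48 to 76.4 ± 2.78 TPM (log2 fold change 0.69 ± 0.13, limma adjusted p = 0.00124).

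Among 22 carriers of vitamins, lipids and organic ions 7 rose, Slc47a1 among them, and 4 fell in the Myocd-LSD1 line. Beside these stand 16.9% higher and 15.4% lower over all tested genes. After median-of-ratios scaling the counts in this line were 7 and 6. With PDGF-BB 4 rose and 3 fell (19.2% and 8.5% over all tested genes), or 3 and 6 after median-of-ratios scaling. Slc47a1 read 0.24, 0.05, 0.48 and 0.23 TPM in Control 1 to 4, 0.22, 0.42, 0.19 and 0.95 in Myocd-LSD1NF 1 to 4, 0.9, 2.6 and 2.17 in PDGF-BB 1 to 3, and 12.2, 15.8, 44.7 and 30.6 in Myocd-LSD1 1 to 4. Slc47a1, the MATE1 exporter of organic cations, was a member only through the Myocd-LSD1 line, so its difference from the other groups follows from the rule, and no test is given. Slc44a1 read 13.9, 16.1, 12.6 and 18.2 TPM in Control 1 to 4, 15.8, 15.4, 11.4 and 23.8 in Myocd-LSD1NF 1 to 4, 24.6, 24.9 and 27.4 in PDGF-BB 1 to 3, and 51.2, 33.3, 41.6 and 29.96 in Myocd-LSD1 1 to 4. Slc44a1, the CTL1 choline carrier, was higher in all Myocd-LSD1 libraries than in all others and rose against Control (log2 fold change 1.29 ± 0.20, limma adjusted p = 0.000143). With PDGF-BB it averaged 25.6 ± 1.56 TPM, above Control (log2 fold change 0.73 ± 0.21, limma adjusted p = 0.0197), a call lost without Control 3 or PDGF-BB 2 or 3 (limma adjusted p from 0.0519 to 0.0737). Slc23a2, the SVCT2 carrier of ascorbate, a cofactor of collagen synthesis, fell in the Myocd-LSD1 line from 31.2 ± 8.07 to 15.01 ± 0.593 TPM (log2 fold change -0.98 ± 0.17, limma adjusted p = 0.000496). It was also called lower with PDGF-BB than in Control. Slc27a1, a fatty acid carrier, fell in the Myocd-LSD1 line too (log2 fold change -0.70 ± 0.15, limma adjusted p = 0.00266). Slc17a5, the lysosomal sialic acid exporter, went in opposite directions, higher in the Myocd-LSD1 line (log2 fold change 0.66 ± 0.11, limma adjusted p = 0.000387) and lower with PDGF-BB (log2 fold change -0.54 ± 0.12, limma adjusted p = 0.00529).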

How the data were processed

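Per the labels, RNA was isolated from rat aortic SMC with a column kit and DNase I, and stranded polyA libraries were made. The 15 libraries are columns of 1 table of TPM that the authors deposited. Which aligner, counting tool, build and annotation gave these TPM is not stated in the labels. The 4 columns of group means were not used. No depth can be read from TPM, so no counting interval was calculated.

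Genes with at least 1 TPM in at least 3 of 15 libraries were tested, which left 12207 of 32623. All libraries entered 1 limma fit of log2(TPM + 1) by group (limma 3.58.1, R 4.3.3, eBayes with trend), and p-values were adjusted over all tested genes by the Benjamini-Hochberg method (two-sided, threshold 0.05). The procedure was tested on simulated data. The members, the substrate classes, the list of partner genes and the comparisons were chosen with earlier results of these data known. Slc7a6os was moved out of the amino acid class after its values were seen, since it lies opposite Slc7a6. The genes named are 5 leading carriers, the 8 largest rises and falls per comparison, up to 3 called members per class and direction, the most abundant of each class, and up to 6 partners per comparison. The partners Ada, Asns, Atf4, Bsg, Emb, Ldha, Mpc1, Pfkfb3 and Vdac1 were chosen after their values were seen. So were the results of Slc17a5, Slc25a28, Steap3 and Pfkp in the Myocd-LSD1 line and of Slc25a28 and Slc25a37 between this line and PDGF-BB. Some genes are not reported here. Whether reads of near-identical gene copies were shared is not given. Alternatives were other pseudocounts, filters and scalings, a replicate block, array weights, separate fits for each pair of groups and omission of libraries. Python 3.11.15, pandas 2.3.3, numpy 2.4.6 and matplotlib 3.10.9 made tables and plots.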

Additional observations from a re-analysis of the deposited data

Results flagged for a closer look

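Each of 26 members whose values are given by library was searched for a library far from the other 3 of its group, in 78 groups of 4, by Dixon's test at the 95% level, which flags about 1 in 20 groups by chance. It flagged 7. Control 4 was apart from the other 3 Control libraries in Slc3a2 (264 TPM against 153 to 169.6), Slc7a11 (5.55 against 0.490 to 1.11) and Slc24a3 (40.7 against 25.9 to 27.1). Control 2 was apart in Slc1a3 (123 TPM against 53.0 to 63.9). Myocd-LSD1NF 4 was apart in Slc39a13 (147 TPM against 75.5 to 76.8), and Myocd-LSD1NF 2 in Slc8a1 (6.49 against 5.02 to 5.23). Myocd-LSD1 3 was apart in Slc25a37 (12.8 TPM against 11.4 to 11.6). In each the highest library was the one that stood apart.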

How the results depend on the processing

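Depth is unknown, so its limit on low carriers cannot be given. The number of members passing in the Myocd-LSD1 line against Control was within 1.5 times of 72 under every alternative run, from 48 without Myocd-LSD1 2 and 4 to 90 with array weights, and 55 to 71 when 1 library was left out. In Myocd-LSD1NF against Control the count of 1 became 0 after quantile normalization and 5, all lower, with array weights, and it was 0 to 2 when 1 library was left out. With PDGF-BB the count of 44 was 27 to 49 when 1 library was left out. Between the lines it was 44 to 60, and 38 without Myocd-LSD1 2 and 4. Between Myocd-LSD1 and PDGF-BB it was 41 to 56, and 34 without Myocd-LSD1 2 and 4. The cause of these differences was not tested. Shares over all tested genes under these alternatives are not given here, so the counts cannot be set against a background. Quantile normalization gave splits, higher and lower, of 39 and 37 for Myocd-LSD1 against Control and 23 and 26 for PDGF-BB against Control. The splits were 34 and 33 between the lines and 34 and 29 for Myocd-LSD1 against PDGF-BB.

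With a replicate block the counts were 75, 1, 52, 63 and 55 in the order above. Same-numbered libraries of different groups correlated at -0.225 to 0.576 in their deviations, and differently numbered ones at -0.322 to 0.316. The highest value was that of Control 3 and Myocd-LSD1NF 3, and Control 4 and Myocd-LSD1NF 4 stood at 0.301. The labels do not say whether same-numbered libraries were handled together, and this was not tested. The fit without the block is reported.

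The alternatives were counted over the called differences of named members and partners and over all differences of the 5 leading carriers. Of 5216 values, 4795 kept their direction and side of the threshold, 385 were no longer past it and 11 came past it. The sign changed in 25, all of differences of the 5 leading carriers that had not passed. Slc2a3 in the Myocd-LSD1 line, not counted there since it had not passed, went from -0.52 to 0.15 without Myocd-LSD1 2 and 4. Without Myocd-LSD1 2 and 4, Slc7a5 changed to -0.025 against Control, -0.461 against Myocd-LSD1NF and -0.095 against PDGF-BB on the log2 scale, and Slc29a1 to 0.083 against PDGF-BB. Between the lines, Slc3a2 changed to 0.010 after quantile normalization, 0.075 with array weights and ranged from -0.12 to 0.061 when 1 library was left out, and Slc7a5 from -0.12 to 0.32. In Myocd-LSD1NF against Control, Slc29a1 changed to -0.047 with array weights and ranged from -0.20 to 0.25 without 1 library, and Slc2a1 to -0.026 with array weights and from -0.13 to 0.12 without 1 library. With PDGF-BB, median-of-ratios scaling changed Slc2a1 to -0.032 and Slc7a5 to -0.076, and Slc7a5 ranged from -0.16 to 0.43 when 1 library was left out.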

Other observations

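Some rows named after carriers are no transporters. Slc9a3r1, the NHERF1 scaffold protein that anchors membrane proteins, rose in the Myocd-LSD1 line from 68.6 ± 7.92 to 104 ± 21.5 TPM (log2 fold change 0.58 ± 0.15, limma adjusted p = 0.00865), a call lost without Myocd-LSD1 2 and 4 (limma adjusted p = 0.0684). Slc40a1_2, a copy of a duplicated symbol for the iron exporter ferroportin, chosen after its values were seen and uncertain because reads may be split between copies, read 12.9, 17.8, 8.77 and 37.5 TPM in Myocd-LSD1 1 to 4, beside 13.6, 15.5, 15.4 and 11.4 TPM in Control 1 to 4 and 13.96, 11.99, 13.3 and 5.53 TPM in Myocd-LSD1NF 1 to 4. Its highest value was in Myocd-LSD1 4. The peroxisomal carrier Slc25a17 stood at 69.9 ± 3.67 TPM in the Myocd-LSD1 line, 60.2 ± 9.34 with PDGF-BB, 61.7 ± 6.51 in the NF line and 61.3 ± 2.36 in Control, and passed in no comparison.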
